A study of Mus musculus with 1203 samples.

Results

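The MHC class I and immunoproteasome genes described here are 10 of the 46517 mouse genes in the table, chosen by name, and each symbol matched 1 entry. They are the class I light chain B2m, the class I heavy chains H2-K1 and H2-D1, the peptide transporter subunits Tap1 and Tap2, the loading factor Tapbp (tapasin), the immunoproteasome subunits Psmb8, Psmb9 and Psmb10, and the class I transactivator Nlrc5. Each of 1203 wells had received a sorted colon cell of a female mouse aged 11 weeks, profiled by Smart-seq2, which amplifies full-length cDNA from polyadenylated RNA. Tuft cells, the chemosensory cells of the epithelium, had been stained as EPCAM- and SIGLEC-F-positive, but how the wells labelled epithelial were gated was not given in the sources used here. Of 1083 wells labelled tuft, 590 were wild type (plate sets 1, 3 and 6), and the rest were labelled conditional knockout (plate sets 2, 4, 5 and 7), which here means mice with Villin-Cre and floxed Ipmk, the gene of inositol polyphosphate multikinase. Of 120 wells labelled epithelial, 53 were wild type and 67 labelled conditional knockout.

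Villin-Cre acts in intestinal epithelial cells, so other cells of these mice would keep Ipmk. No label names an animal or a strain, and no plate set holds both genotypes, so genotype and plate set cannot be told apart. Each genotype is 1 sample, no p-value was computed, and every SD is between plate sets, which may be technical replicates of the same mice.

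MHC class I molecules show peptides from inside a cell to CD8 T cells and natural killer cells. Under interferon the immunoproteasome subunits replace the constitutive catalytic subunits in new proteasomes. The TAP transporter carries the peptides into the endoplasmic reticulum, and tapasin helps to load them on a heavy chain paired with beta-2 microglobulin. NLRC5 raises transcription of class I and some related genes at promoters that carry the X and Y boxes, and intestinal epithelial cells are known to carry class I at baseline.

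Of the 1203 wells, 856 had at least 1000 genes above 0 TPM (a share of all transcripts, corrected for transcript length) and were kept, with plate-set medians between 1624 and 3311 genes per cell in the tuft gate. A kept cell of the tuft gate counted as a double-positive tuft cell when it held at least 50 TPM of Trpm5, the taste-like cation channel, and at least 100 TPM of Dclk1, a kinase that marks tuft cells. That was 60.97% of the 766 kept cells of this gate. Plate set 7 gave 9 of these cells, and each other set at least 53. In these cells 12 tuft markers summed to 1771 to 2891 TPM by plate set, against 88.8 to 331.1 TPM in the rest. Trpm5 and Dclk1, which define the class, are among the 12, so part of this gap was set in advance. Each of the 12 was higher in every plate set, so the markers not used for the class were too. The rest of the cells held 1684 to 9400 TPM of 10 absorptive colonocyte markers and are called other cells of the tuft gate below. Ipmk RNA was not consistently lower with the conditional knockout label. Its plate-set means ran from 1.68 to 2.23 TPM in wild type double-positive cells and from 1.297 to 12.7 TPM in those labelled conditional knockout. In the other cells of the tuft gate they were 5.13 to 8.84 and 11.6 to 30.2 TPM. Only 20.3% and 17.2% of double-positive cells had a value. With 1 value per gene, loss of the floxed part cannot be judged. Every direction given below rests on the label. RNA of 18S ribosomes took 69.1% to 80.3% of all TPM in the tuft gate, which lowers every other level.

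Of the 10 genes, 7 lie in the MHC on chromosome 17 (mm10 coordinates from GENCODE). H2-K1 lies at chr17:33996017-34000347, minus strand, and H2-D1 at chr17:35262730-35267499, plus strand. Tapbp lies at chr17:33915899-33929292. Psmb9 (chr17:34181987-34187764, minus strand), Tap1 (chr17:34187553-34197225), Psmb8 (chr17:34197721-34201454) and Tap2 (chr17:34203527-34216321) stand side by side. B2m lies at chr2:122147686-122153083, and Psmb10 and Nlrc5 on chromosome 8 at chr8:105935735-105938444 and chr8:94434356-94527272. Psmb9 and Tap1 overlap on opposite strands, and 12.5% of the 50-base windows of the Psmb9 transcript were also found in Tap1. Of the H2-D1 windows 14.3%, and of the H2-K1 windows 8.79%, occur in another gene, mostly other class I genes. Shares of 5.83% to 21.02% were found for Psmb8, Tap1, Tap2 and Tapbp, in other genes that include overlapping neighbours, and 0 for B2m, Psmb10 and Nlrc5. How reads of such stretches were shared out was up to the authors' model, and no source used here gives whether strand was used, so values of the 7 genes on chromosome 17 carry that uncertainty. H2-K1 and H2-D1 also differ between strains, and which alleles these mice carried is not given either.

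The promoters of B2m and of the heavy chains are shown because these genes had the highest levels of the set and because the heavy chains differed in the cells that favoured each. Windows of 250 bases before the start that RefSeq's table gives were available for 8 of the 10 genes (GRCm38.p6). By GENCODE the windows of H2-D1, Tap1, Tapbp, Psmb8 and Psmb9 lie wholly within an annotated exon (250 bases each), and that of Psmb10 in part (52 bases). Those of B2m and H2-K1 share 1 and 0 bases with an exon. Capitals mark matches on either strand to 5 motifs. They are GAAA repeated after 2 bases of any kind and GAANNGAAA (both interferon response type letters), a kappa B type motif of 10 bases, TGACG (X2 box core) and CCAAT (Y box core). The kappa B type motif is given by its name and is the run of capitals that opens the heavy chain stretches. These motifs were chosen after the windows had been read, and a match is a description only. B2m is shown at chr2:122147437-122147685 (plus strand) and H2-K1 at chr17:34000348-34000597 (minus strand), both 5′ to 3′.
B2m: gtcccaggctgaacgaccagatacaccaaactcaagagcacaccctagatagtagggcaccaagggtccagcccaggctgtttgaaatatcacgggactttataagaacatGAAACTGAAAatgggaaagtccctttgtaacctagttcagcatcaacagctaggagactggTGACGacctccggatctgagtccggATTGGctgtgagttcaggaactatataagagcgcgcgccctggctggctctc
H2-K1: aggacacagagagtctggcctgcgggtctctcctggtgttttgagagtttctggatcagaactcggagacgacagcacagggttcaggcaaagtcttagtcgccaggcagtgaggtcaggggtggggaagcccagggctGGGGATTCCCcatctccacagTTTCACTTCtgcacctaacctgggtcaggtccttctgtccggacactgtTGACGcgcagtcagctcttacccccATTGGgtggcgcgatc

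B2m held the repeated GAAA, found in 2.98% of 32851 RefSeq promoter windows of this length, together with TGACG (17.8%) and CCAAT (33.8%). H2-K1 held GAANNGAAA (6.31%), the kappa B type motif (0.0852%, or 28 windows), TGACG and CCAAT. The H2-D1 window held the same 4 sets of letters. In its best local alignment with the H2-K1 window 90.96% of columns were identical. That alignment was chosen after an end-to-end one had given 170 of 310 columns (54.8%). The stretch from the kappa B type letters to the interferon type letters is set side by side because it is nearly the same in both heavy chain genes, with 1 of 30 bases differing (H2-K1 at chr17:34000429-34000458, H2-D1 at chr17:35262923-35262952). The H2-D1 stretch lies within a GENCODE exon and the H2-K1 stretch does not.
H2-K1 stretch: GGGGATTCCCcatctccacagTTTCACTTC
H2-D1 stretch: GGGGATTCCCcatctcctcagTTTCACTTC

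Psmb8 held TTCNNNGAA (letters of the interferon-gamma activated site type, found in 7.02% of windows), which the windows of the other 7 genes lacked. Tap1 and Psmb9 start in opposite directions from RefSeq starts at 34187556 and 34187330. The table used has no window for Tap2 or Nlrc5.

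Within double-positive tuft cells, levels of the 10 genes ran from 0.103 to 184.4 TPM. H2-D1, H2-K1 and B2m were the most abundant in both genotypes, at 146.9 ± 47.2, 90.6 ± 17.4 and 43.3 ± 4.02 TPM (SD, n = 3 plate sets) in wild type and 184.4 ± 34.6, 155.5 ± 14.7 and 107.5 ± 28.3 TPM (n = 4) in those labelled conditional knockout. Tapbp followed at 33.9 ± 11.0 and 37.4 ± 6.14 TPM, and in wild type its plate-set range of 26.02 to 46.5 TPM overlapped that of B2m, so that order is not beyond the spread. Psmb10 had 12.4 ± 2.96 and 14.2 ± 1.26 TPM. Psmb8 (5.44 ± 0.672 and 11.1 ± 4.29), Psmb9 (4.26 ± 2.28 and 8.66 ± 6.31) and Tap1 (2.65 ± 1.87 and 6.76 ± 0.950) had overlapping ranges. Tap2 stood at 1.80 ± 0.166 and 2.00 ± 1.40 TPM, and Nlrc5 was lowest at 0.103 ± 0.104 and 1.66 ± 0.745 TPM.

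**Figure D1:**
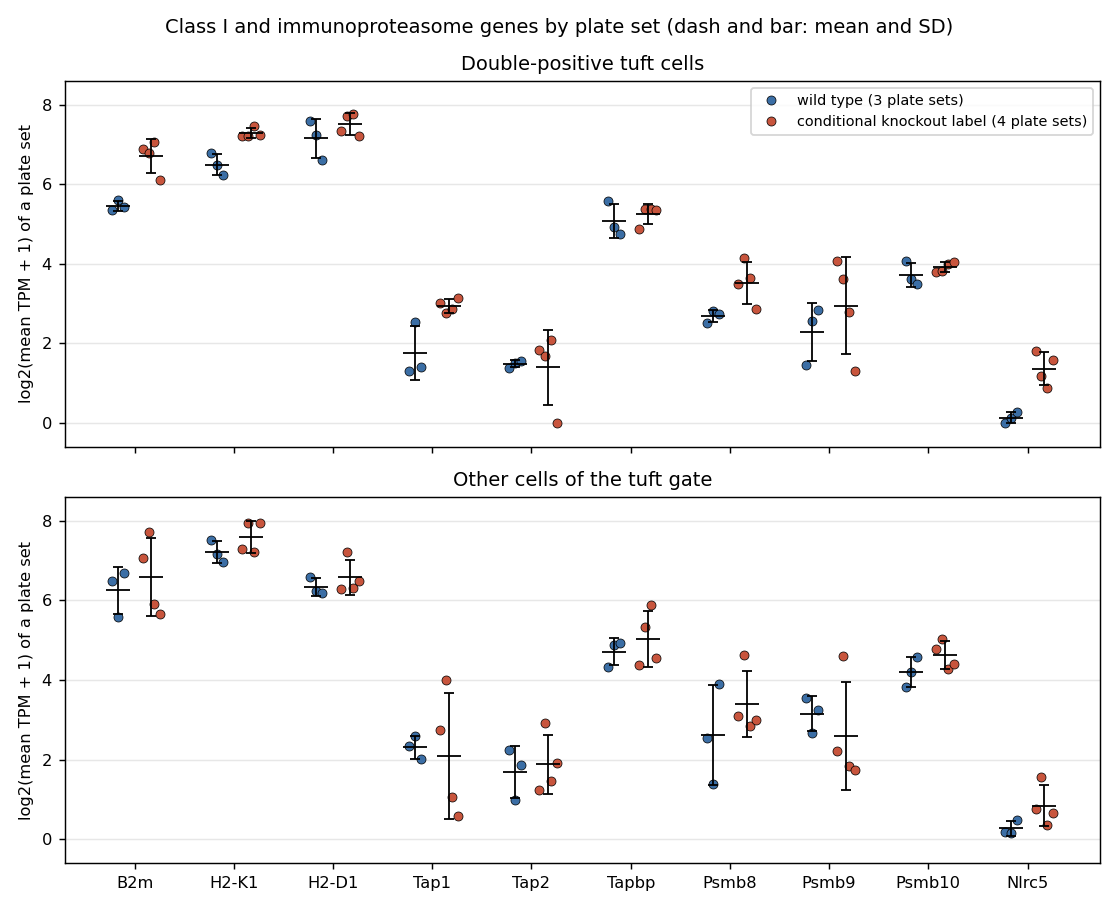
Mean level of each gene on a log2(TPM + 1) axis, 1 point per plate set, in double-positive tuft cells (top) and other cells of the tuft gate (bottom). In double-positive cells the wild type and conditional knockout label points of B2m, H2-K1, Tap1, Psmb8 and Nlrc5 do not overlap, and in the other cells all 10 genes overlap.

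RNA of B2m, H2-K1 and Psmb8 stood higher in double-positive tuft cells labelled conditional knockout than in wild type ones. To meet the rule of size a gene needed 10 TPM in 1 of the genotypes, a 1.5-fold difference on the log2(mean TPM + 1) scale, and no overlap of plate sets between the genotypes. B2m, H2-K1 and Psmb8, 3 of the 6 genes that reached 10 TPM, met it upward and none downward, against 1.82% of 2309 genes upward and 2.47% downward. Psmb8 passed this floor only through the group where it was high (5.44 TPM in wild type, 11.1 TPM in the others). Plate sets did not overlap for 5 of the 10, with Tap1 and Nlrc5 higher but under 10 TPM, against 1.91% of the 9562 genes of at least 1 TPM. Nlrc5 passed 1 TPM only through its high group too (0.103 and 1.66 TPM), so these counts are descriptions only. The median log2 difference of the 10 was 0.73 against -0.17 over those 9562 genes, and 9 of the 10 lay above 0 against 35.6% of them.

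B2m pairs with every class I heavy chain. It had 40.1, 47.8 and 42 TPM in wild type (plate sets 1, 3 and 6), against 118.2, 110.3, 133.8 and 67.7 TPM in sets 2, 4, 5 and 7 labelled conditional knockout. The lowest of these 4, with 9 cells, still lay above all 3 wild type sets. The log2 difference was 1.25 (pooled SD 0.34), or 2.38-fold. This call stood under each of 21 alternatives, from 1.08 upward.

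More cells held B2m at all, 71.5% (95% exact binomial interval 64.4% to 77.9%, counting error only) against 48.8% of wild type cells (42.8% to 54.8%). The cells labelled conditional knockout had fewer genes above 0, with a median of 2416 against 2755. By plate set the shares were 42.9%, 57.97% and 46.8% in wild type, against 73.6%, 75.4%, 67.3% and 55.6% in the others, so the groups overlapped through plate set 7. Among cells with a value, the median was 109.1 TPM against 50.3 TPM.

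H2-K1, a classical heavy chain, had 108.9, 88.4 and 74.4 TPM in wild type sets, against 148.2, 146.6, 177.5 and 149.7 TPM in those labelled conditional knockout. All 4 lay above all 3. The log2 difference was 0.79 (SD 0.20), or 1.72-fold. Nearly all cells held it, 86.8% in wild type and 93.5% in the others. The groups overlapped when log2(TPM + 1) was averaged over cells (0.82, SD 0.38).

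H2-D1, the other classical heavy chain, did not meet the rule. It had 191.8, 151.1 and 97.8 TPM in wild type, against 160.95, 210.7, 217.3 and 148.7 TPM in the sets labelled conditional knockout, with a log2 difference of 0.36 (SD 0.37). Wild type set 1 stood above 2 of the 4 others. The 95% intervals of the share of cells with a value also met, at 97.5% (94.9% to 98.99%) and 99.5% (97.04% to 99.99%).

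Of the peptide transport and loading genes, Tap1 differed and Tap2 and Tapbp overlapped. Tap1, an ATP-binding subunit of the transporter, had 1.46, 4.81 and 1.67 TPM in wild type, against 7.14, 5.77, 6.24 and 7.90 TPM in sets labelled conditional knockout. Its log2 difference was 1.20 (SD 0.45) with no overlap, but it stayed under 10 TPM. Tap1 was above 0 in 33.3% of cells (26.6% to 40.6%) against 18.9% in wild type (14.5% to 23.9%). By plate set these shares overlapped, at 10.7% to 26.1% in wild type and 23.6% to 66.7% in the others.

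Tap2, its partner subunit, had 1.63, 1.82 and 1.96 TPM in wild type, against 2.59, 2.20, 3.23 and 0 TPM in the others, a log2 difference of -0.09 (SD 0.74). The 0 belongs to plate set 7 with its 9 cells, and without it the difference was 0.38. Tapbp had 46.5, 29.2 and 26.02 TPM in wild type, against 28.3, 40.8, 41 and 39.6 TPM in the others, a log2 difference of 0.17 (SD 0.34). Both pairs of groups overlapped.

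Among the immunoproteasome subunits, Psmb8, which replaces Psmb5, met the rule. It had 4.70, 6.003 and 5.63 TPM in wild type, against 10.2, 16.6, 11.4 and 6.25 TPM in sets labelled conditional knockout, a log2 difference of 0.85 (SD 0.42) or 1.80-fold. The lowest of the 4, plate set 7, stood close to the highest wild type set. Without plate set 4 no group reached 10 TPM and the call was lost (0.64), as it was under 7 others of 21 alternatives. Psmb8 was above 0 in 33.9% of cells (27.1% to 41.2%) against 21.7% in wild type (17.03% to 26.99%). By plate set these shares overlapped too, at 18.8% to 23.7% in wild type and 22.2% to 40.6% in the others.

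Psmb9, which replaces Psmb6, had 1.74, 4.88 and 6.16 TPM in wild type, against 15.9, 11.3, 5.89 and 1.47 TPM in the others. Its groups overlapped fully, with a log2 difference of 0.67 (SD 1.05). Psmb10, which replaces Psmb7, had 15.8, 11.3 and 10.2 TPM against 13.02, 13.2, 15.1 and 15.5 TPM, a log2 difference of 0.20 (SD 0.21). It was above 0 in 43.8% of wild type cells and 43.5% of the others. Of the 3 subunits only Psmb8 thus had plate sets apart.

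Nlrc5, the transactivator, was listed at 0 in wild type set 1 and had 0.0999 and 0.209 TPM in sets 3 and 6. The sets labelled conditional knockout had 2.52, 1.28, 0.840 and 1.99 TPM, all above the wild type sets, with a log2 difference of 1.23 (SD 0.33). It was above 0 in 27 cells (14.5%, 9.79% to 20.4%) against 9 cells (3.20%, 1.47% to 5.99%). By plate set these were 0, 1 and 8 cells in wild type, and 11 of 53, 8 of 69, 6 of 55 and 2 of 9 in the others. Even the highest plate-set mean was far under the 10 TPM floor, so the level rests on few cells.

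**Figure D2:**
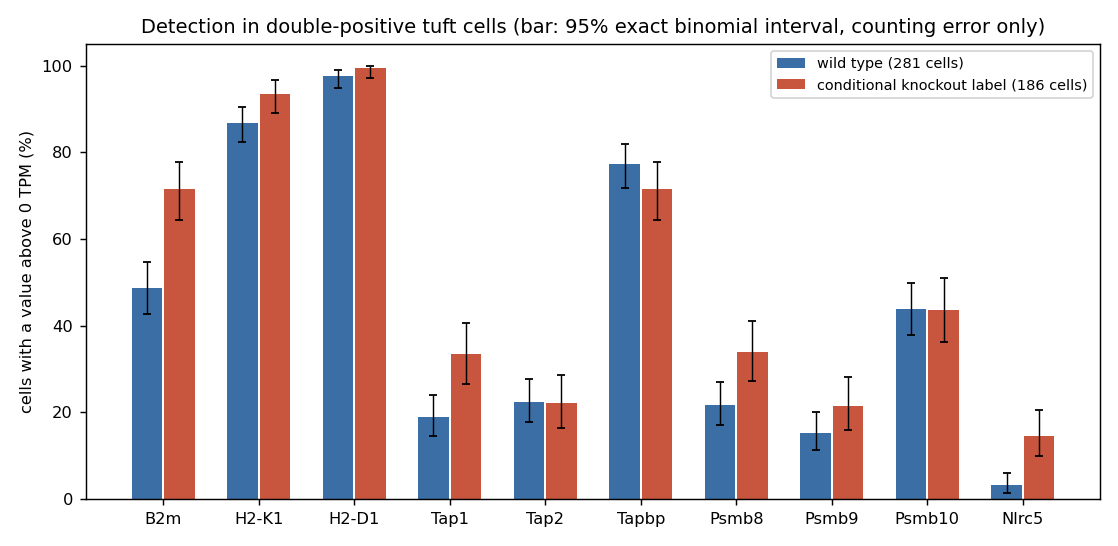
Share of double-positive tuft cells with a value above 0 TPM, in percent, for each gene, wild type beside conditional knockout label. Error bars are 95% exact binomial intervals, which pool cells over plate sets and cover counting error only. They do not meet for B2m, Tap1, Psmb8 and Nlrc5, but by plate set the shares of B2m, Tap1 and Psmb8 overlapped and those of Nlrc5 did not.

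Markers of other cells were examined beside these differences. The colonocyte marker sum in double-positive cells was 71.9 to 219.4 TPM in wild type plate sets and 32.7 to 704 TPM in the others. At least 3 colonocyte markers of 10 TPM or more were found in 18 wild type cells (6.41%) and 21 others (11.3%). Without those cells, an alternative chosen after the data were seen, B2m and H2-K1 still met the rule, while Psmb8 did not (0.90). A further setting, also chosen after the data were seen, kept the 62 cells with at most 10 TPM of colonocyte markers (4 plate sets, median 1682 genes). There B2m (3.06), H2-K1 (1.76), H2-D1 (1.42) and Tapbp (0.59) met it, but so did 35.8% of 1368 genes in either direction, against 4.29% as reported. Nlrc5 differed by -0.01 and Psmb10 by -1.16. Macrophage and dendritic markers summed to at most 6.80 TPM, with Lyz2, C1qa, C1qb, C1qc and Itgax at 0 in both genotypes. Of 9 lymphocyte markers 7 were at 0 in both, Cd3d, Cd3e and Cd79a among them. The 7 MHC class II genes summed to at most 3.30 TPM. The part of the colonocyte RNA in the differences was not tested further.

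The rest of the pathway was taken from lists chosen with earlier results known. Among genes of interferon receptors and signalling, Irf7 met the rule upward and none met it downward in double-positive tuft cells. Irf7, an interferon-induced transcription factor, had 14.0, 29.5 and 29.9 TPM in wild type, against 106.3, 83.4, 92.5 and 265.7 TPM in sets labelled conditional knockout, a log2 difference of 2.34 (SD 0.70). All 4 of these sets lay above the wild type sets. Plate sets of Irf9, a DNA-binding factor of type I interferon signalling, also stood apart, at 3.85 ± 2.67 and 9.73 ± 3.96 TPM and thus under the floor. Irf1, which is known to act on class I promoters, had 13.4 and 11.4 TPM and overlapped.

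Of 17 other class I and class I-like genes none met the rule in double-positive cells, but H2-Q1, H2-Q4, H2-Q6 and H2-Q7 had plate sets that did not overlap, all higher with the conditional knockout label and under 10 TPM. Of the 17, 7 reached 1 TPM, and 1.91% of all genes of at least 1 TPM stood apart upward. H2-Q7, a non-classical heavy chain, had 3.01, 3.97 and 5.10 TPM in wild type, against 11.1, 8.14, 8.61 and 8.43 TPM in the others. H2-Q1, H2-Q6 and H2-Q7 share windows with H2-D1, so their values are uncertain. H2-T23, the mouse Qa-1 heavy chain, had 26.5 ± 6.03 and 36.99 ± 18.4 TPM and overlapped.

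Of the constitutive counterparts, none of Psmb5, Psmb6 and Psmb7 met the rule in double-positive cells, and Psmb6 had 70.9 ± 20.8 TPM in wild type, against 52.8 ± 5.86 TPM in the others (log2 difference -0.38, SD 0.30). Of 4 genes of the proteasome activator and of assembly, 3 of which reached 10 TPM, 1 met it downward, against 2.47% of 2309 genes. That gene, Pomp, the assembly factor of new proteasomes, had 36.9, 20.4 and 24.7 TPM in wild type, against 11.4, 13.7, 15.6 and 7.09 TPM in the others (-1.14, SD 0.44). The activator subunits Psme1 and Psme2 overlapped, at -0.25 (SD 0.75) and 0.13 (SD 0.51). None of 5 peptide loading partners, 8 class I promoter-binding factors or 16 interferon-gamma induced GTPases and chemokines met the rule. The chaperones Calr and Pdia3 had differences of -0.03 (SD 0.28) and 0.14 (SD 0.69).

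In all 766 kept cells of the tuft gate the 10 genes each had a difference above 0, against 35.6% of 9862 genes of at least 1 TPM, with a median of 0.47 against -0.14. H2-K1 alone met the rule (1 of 6 genes at 10 TPM or more, against 1.93% of 2277 genes upward and 2.20% downward). It had 133.7, 107.995 and 95.4 TPM in wild type, against 150.3, 181.3, 165.4 and 207.3 TPM in the others, a difference of 0.65 (SD 0.22). Without plate set 6 it was 0.54 and without plate set 7 it was 0.57, both under 1.5-fold. Markers of other cells moved in the same comparison. All 10 absorptive colonocyte markers had differences above 0 (median 0.79) and 4 met the rule upward, while all 8 goblet markers (median -1.34) and all 7 MHC class II genes (median -2.13) lay below 0. Their part in the H2-K1 difference was not tested.

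B2m missed the rule in this gate through plate set 7, whose 56.6 TPM fell within the wild type range of 47.5 to 67.96 TPM. Without that set it met it (1.09 against 0.81 with it), and so did Psmb8 (0.92). Without plate set 6, Psmb8 met it too (1.02). In either direction 5.12% of genes met the rule without plate set 7 and 11.8% without plate set 6, against 4.13% as reported. Without the wells that held MHC class II RNA, described below, B2m also met it (0.93). Psmb10 (14.9, 13.5 and 15.5 TPM against 16.9, 19.8, 16.5 and 18.4 TPM) and Nlrc5 were the other members with plate sets apart (3 of 10, against 2.35% of genes of at least 1 TPM), but Psmb10 differed by 0.27 and Nlrc5 stayed under the floor. Nlrc5 passed 1 TPM here only through the conditional knockout label. Of the pathway genes Irf7 and H2-T23 met the rule upward, and H2-T23 had 31.7 ± 8.58 and 50.3 ± 8.95 TPM.

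In the other cells of the tuft gate none of the 10 genes met the rule, against 3.26% of 2328 genes upward and 1.85% downward, and no gene of the set had plate sets apart (2.56% of genes of at least 1 TPM did, upward). B2m had 89.2, 46.9 and 102.9 TPM in wild type, against 132.2, 210.9, 58.9 and 49.5 TPM in the others (0.33, SD 0.84). H2-K1 differed by 0.39 (SD 0.35), H2-D1 by 0.25 (SD 0.36) and Psmb9 by -0.56 (SD 1.09). Plate set 4 held the highest values of 9 of the 10 genes, all but Tapbp, and without plate set 6, which has wild type cells, Psmb8 (1.41) and Psmb10 (0.60) met the rule. With fewer wild type sets left there, 11.2% of 2440 genes met it in either direction, against 5.11% as reported. Whether the genotype difference itself differed between double-positive and other cells was not tested. Within plate sets, B2m of double-positive minus other cells was -1.13, 0.03 and -1.27 in wild type and -0.16, -0.93, 1.17 and 0.44 in the others, and these overlapped.

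In the 90 kept cells of the epithelial gate none of the 10 genes met the rule (3.24% of 3393 genes did upward and 5.84% downward). Their makeup differed by label, since 18 of 39 wild type cells and 1 of 51 of the others met the levels of a double-positive tuft cell. H2-K1 differed by 0.45 (SD 0.37) and B2m by 0.23 (SD 0.78). Tap2 had plate sets apart, at 1.68 ± 1.08 and 4.53 ± 1.09 TPM, under the floor, where 2.39% of genes of at least 1 TPM stood apart upward. Nlrc5 was above 0 in none of 39 wild type cells, where 3 counts of the 39 allow a share of cells with a value of up to 7.69% (counting error only), and in 2 of 51 others.

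**Figure D3:**
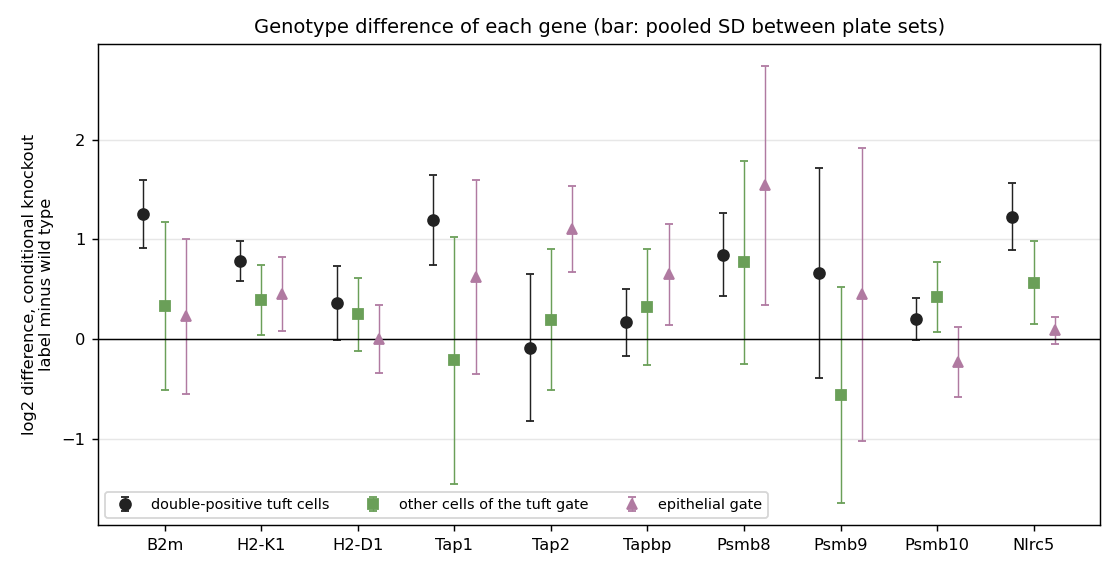
Difference of log2(mean TPM + 1), conditional knockout label minus wild type, for each gene in double-positive tuft cells, other cells of the tuft gate and the epithelial gate, with pooled SD between plate sets. In double-positive cells B2m stands at 1.25 and Nlrc5 at 1.23, and in the other cells of the tuft gate and in the epithelial gate no gene met the rule.

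H2-D1 stood above H2-K1 in 6 of 7 plate sets of double-positive tuft cells, and in 0 of 7 sets of the other cells of the same gate. Compared within each plate set, H2-D1 was higher in double-positive cells in 7 of 7 sets (168.3 ± 41.8 against 90.7 ± 26.7 TPM, n = 7, difference 0.88, SD 0.35), while 16.9% of genes of at least 10 TPM were higher in every set. H2-K1 was lower in 6 of 7 (127.7 ± 37.6 against 177.4 ± 49.4 TPM, -0.49, SD 0.40). The share of genes lower in at least 6 sets was not computed, and 18.2% met the stricter count of every set. In the 62 double-positive cells with at most 10 TPM of colonocyte markers, in 4 plate sets, H2-D1 differed by -0.19 and H2-K1 by -1.30. In all cells neither reached the 2-fold change asked of this contrast, which no gene of the set met (14.1% of 2585 genes did upward and 14.9% downward).

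The ratio of the heavy chains separated both classes of the tuft gate fully, and no share over other pairs of genes is given beside it. In double-positive cells log2(H2-D1/H2-K1), from mean TPM, was 0.82, 0.77 and 0.39 in wild type sets 1, 3 and 6 and 0.12, 0.52, 0.29 and -0.01 in sets 2, 4, 5 and 7. In the other cells it was -0.93, -0.93 and -0.79, and -1.001, -0.73, -0.92 and -1.45, so every set lay below every set of double-positive cells. The difference within plate sets was 1.38 ± 0.26 (n = 7), between 1.12 and 1.75, or 2.60-fold. It had the same sign in every plate set under each of 20 alternatives, with values from 1.12 to 1.55. By cell, H2-D1 exceeded H2-K1 in 64.5% of double-positive cells with both above 0 and in 26.9% of others. Within double-positive cells the ratio was 0.66 ± 0.23 in wild type and 0.23 ± 0.23 in the others, with overlap. In the epithelial gate it ran from -1.06 to 0.37 by plate set and thus reached into the range of double-positive cells. Its plate set 7, with 9 cells of which 0 were double-positive, stood at 0.20. RNA that cells of another type left in a well would carry that type's ratio, and its part here was not tested. The difference was 1.39 without double-positive cells with colonocyte markers, and 1.12 in the 62 double-positive cells with at most 10 TPM of those markers, in 4 plate sets.

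**Figure D4:**
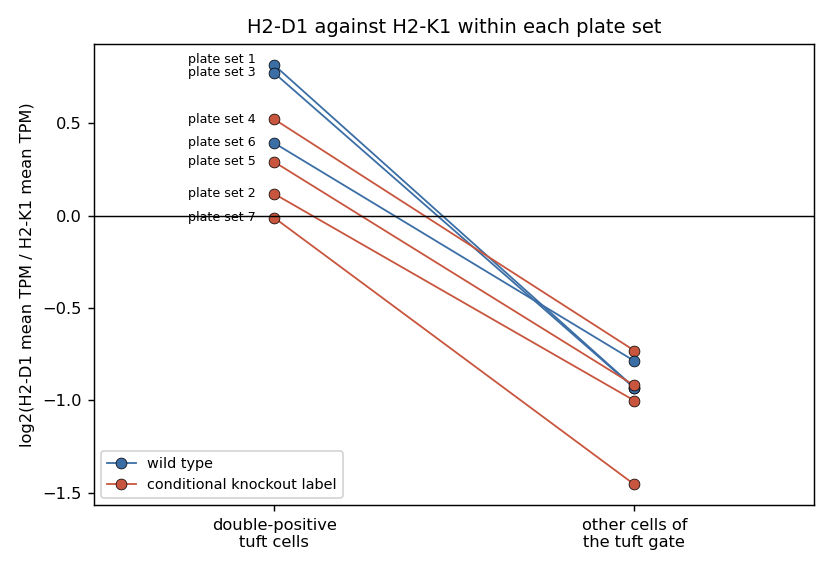
log2 of the ratio of mean TPM, H2-D1 over H2-K1, for each of 7 plate sets in double-positive tuft cells (left) and other cells of the tuft gate (right), with a line joining the same plate set. Every line falls, and the sets lie between -0.01 and 0.82 on the left and between -1.45 and -0.73 on the right.

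Of the other 8 genes none met the rule for this contrast. Psmb10 was lower in double-positive cells in 6 of 7 sets (13.4 ± 2.16 against 21.5 ± 6.17 TPM, -0.61, SD 0.52), and its difference lay below 0 under every alternative run. B2m differed by -0.26 (SD 0.90), Tapbp by 0.28 (SD 0.60), Psmb8 by 0.11 (SD 0.85) and Psmb9 by -0.17 (SD 1.28), each with both signs among plate sets. Over all 10 the median was -0.03, against 0.07 over 10247 genes of at least 1 TPM. Among interferon receptors and signalling genes, Ifngr1, the ligand-binding chain of the interferon-gamma receptor, met it downward (4.22 against 43.2 TPM, -3.05, SD 1.34), as did Irf8, a factor of myeloid and B cells (-2.58, SD 1.67). Among other class I genes H2-Q2 met it downward (1.73 against 16.4 TPM, -2.82, SD 0.79).

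Kept cells of both gates that were not double-positive were sorted by markers, with at least 3 markers of a list at 10 TPM or more, a rule chosen after the data were seen. They gave 110 wild type and 94 other cells of the absorptive colonocyte list, whose H2-K1 means over cells of 165.6 and 254.8 TPM stood above their H2-D1 means of 88.9 and 128.97 TPM. Of the 10 genes, H2-K1 and Psmb8 met the rule of size upward between genotypes in these cells, against 4.13% of 2468 genes (4.38% downward). H2-K1 had plate-set means of 146.07 to 211.07 TPM in wild type and 230.6 to 297.9 TPM in the others (0.60, SD 0.21), and Psmb8 had 2.46 to 8.19 TPM and 9.77 to 13.6 TPM (1.24, SD 0.49). Psmb8 reached 10 TPM only with the conditional knockout label (mean of plate sets 11.2 TPM, against 4.63 TPM in wild type). Plate sets of Tap2 (1.07, SD 0.40) and Nlrc5, listed at 0 in the 3 wild type sets, stood apart as well. That made 4 of the 10 in all, against 2.86% of genes of at least 1 TPM. Nlrc5 averaged 0.547 TPM in the others and is thus not among the genes of that share. H2-D1 (0.48, SD 0.24) and B2m (0.81, SD 0.73) overlapped. Psmb10 in these cells, at 25.95 and 31.7 TPM, was above the 11.3 and 13.8 TPM of double-positive cells. The goblet list (13 and 11 cells) and the stem and cycling list (13 and 15 cells) had few cells, and no comparison is made for them.

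A small number of cells held a large part of the RNA of some genes of the set in the other cells, and a small part of that of others. At least 3 of the 7 MHC class II genes, which present peptides to CD4 T cells, reached 10 TPM in 17 kept cells that were not double-positive, 12 wild type and 5 others. All 17 had Epcam and Cd74 above 0, 8 had Ptprc (CD45, a marker of blood cells), 8 had Lyz2, and none had Cd3e or Cd79a. Their B2m means were 471.3 and 853 TPM, Psmb9 means 55.97 and 145.4 TPM and Psmb8 means 77.8 and 109.7 TPM. In the tuft gate 16 of them made up 5.35% of the other cells and held 31.5% of their B2m, 43.2% of their Psmb8 and 53.9% of their Psmb9 TPM, but 10.5% of H2-K1 and 9.02% of Psmb10. Plate set 6 held 10 of the 16 and plate set 4 held 4. Without such wells, an alternative added after the data were seen, double-positive minus other cells moved from -0.26 to 0.02 for B2m, from 0.11 to 0.51 for Psmb8 and from -0.17 to 0.55 for Psmb9. H2-D1 was then at 0.96 and the ratio difference at 1.40.

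**Figure D5:**
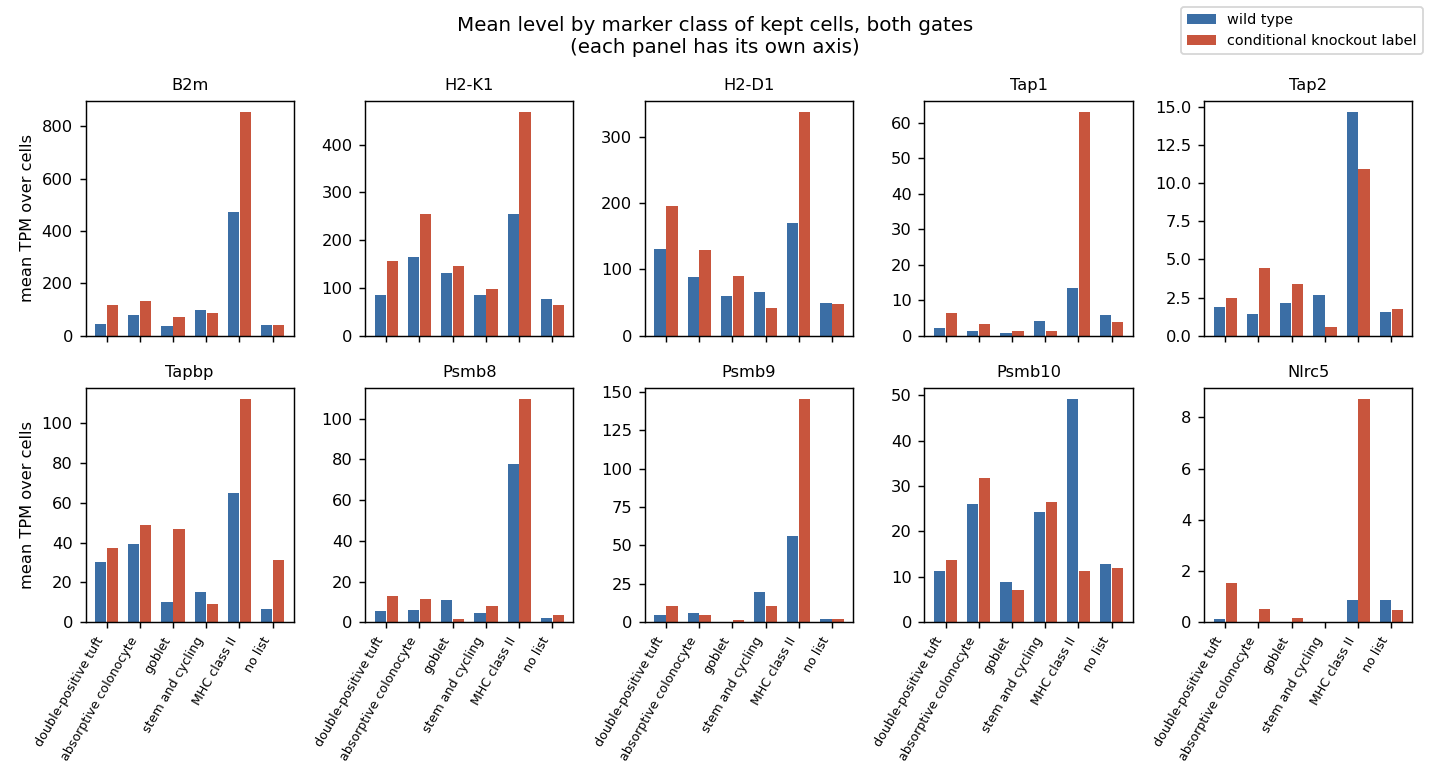
Mean TPM over kept cells of both gates, by marker class and genotype label, 1 panel per gene with its own axis. The class II cells (12 wild type, 5 labelled conditional knockout) have the highest B2m, at 471.3 and 853 TPM, and H2-D1 exceeds H2-K1 in double-positive tuft cells but not in colonocytes.

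Across double-positive cells the abundant genes varied together the most. Pearson's r of log2(TPM + 1) between pairs of B2m, H2-K1, H2-D1 and Tapbp was 0.37 to 0.54 over wild type cells and 0.43 to 0.65 over the others, and between 0.03 and 0.37, and -0.03 and 0.41, for the other 39 pairs. Cells share plates and differ in depth, and low genes are often at 0, so these are descriptions only. The genes most like the mean profile of the 10, over 14 points (7 plate sets in both classes) and among 4105 genes, were Nit1 (r = 0.78), Abhd17a (0.76), Pbrm1 (0.75), Emc4 (0.74) and Chtf18 (0.74). Of the set itself, each against the mean of the other 9, B2m had 0.87 and Psmb8 0.79, while H2-D1 had 0.31 and Tapbp 0.09.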

How the data were processed

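The deposited table holds TPM per gene and well, computed by the authors. Bowtie2 2.4.2 and RSEM 1.3.3 with build mm10 appear in the submitters' processing notes. For annotation release, strand and read depth nothing was given in the sources used here, so genes above 0 stand in for depth. Of the wells, 19 were empty, and the 38 wells of 1 plate of set 7, whose near-whole values cannot be shown to be TPM, had at most 6 genes above 0 and were not kept. Cells of a plate set (at least 5) gave a mean of the authors' TPM, and log2(mean TPM + 1) was averaged over plate sets with equal weight. Double-positive tuft cells numbered 281 wild type (56, 69 and 156 in plate sets 1, 3 and 6) and 186 labelled conditional knockout (53, 69, 55 and 9 in sets 2, 4, 5 and 7), and other cells of the tuft gate 185 and 114. Shares have exact Clopper-Pearson intervals. Code was tested on simulated data (Python 3.11.15, numpy 2.4.6, pandas 2.3.3, scipy 1.17.1).

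All 10 genes are named, with called pathway genes (at most 4 per list), up to 2 others per list by mean TPM, list markers, and the 5 genes of most like profile. Other genes named were chosen after their values were seen. Members and lists were chosen with earlier results of these data known. Alternatives covered pseudocount, averaging, scaling, filters, plates and left-out plate sets. Doublets were not searched for. A gene of the interferon list that met the rule is not reported here.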

Additional observations from a re-analysis of the deposited data

Results flagged for a closer look

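Plate sets far from the rest of their group were searched for in 50 groups of 4 to 7 plate-set values, and 7 groups had one. A rate of about 1 in 20 was assumed for chance. The groups share plate sets and cells, so 7 of 50 cannot be read as an excess over it. In double-positive tuft cells labelled conditional knockout, H2-K1 of plate set 5 stood at 177.5 TPM, against 146.6 to 149.7 TPM in the other 3 sets, and Tapbp of plate set 2 at 28.3 TPM, against 39.6 to 41 TPM. In the other cells of the tuft gate with that label, plate set 4 stood apart for 3 genes. H2-D1 was 148.2 TPM there against 77.6 to 89.1 TPM, Psmb8 was 23.6 TPM against 6.14 to 7.55 TPM, and Psmb9 was 23.3 TPM against 2.32 to 3.66 TPM. That plate set holds 4 of the 16 class II cells of the gate, and their part in these values was not tested. In the epithelial gate Tap1 of plate set 7 was 7.43 TPM, against 0.551 to 1.64 TPM in the other sets labelled conditional knockout, and Nlrc5 of plate set 5 was 0.267 TPM, where the other 3 sets were listed at 0.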

How the results depend on the processing

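No paired analysis was possible because, between genotypes, replicate numbers follow only the order of wells and no plate set holds both. Double-positive and other cells were compared within plate sets throughout.

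The number of genes of the set that met the rule upward in the whole tuft gate (1 as reported) became 0 when log2 values were averaged over cells, with at least 500 genes per cell and with first plates alone, and 2 with at least 2000 genes, with a floor of 1 TPM, with no floor, and without class II wells or class II and lymphocyte wells. Leaving out a plate set gave 1 to 2. In double-positive tuft cells the number (3) was 1 with log2 values averaged over cells and 5 with a floor of 1 TPM or none, where Tap1 and Nlrc5 joined. The median difference of the 10 genes (0.73) was 0.34 with a pseudocount of 10, 0.41 with log2 values averaged over cells, 0.88 with TPM rescaled without 18S and mitochondrial RNA, 0.48 with 20 TPM of Trpm5 and Dclk1, and 1.01 in the 62 double-positive cells with at most 10 TPM of colonocyte markers. It was 0.54 to 0.94 with a plate set left out.

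In the other cells of the tuft gate (0) the number was 0 to 2 with a plate set left out. In the epithelial gate (0) it was 1 with log2 values averaged over cells, with at least 500 genes, with a floor of 1 TPM or none and without class II wells, 2 under rescaling, and 0 to 1 with a plate set left out. There the median difference (0.45) was 1.07 under rescaling, which moved the median of all genes from -0.21 to 0.17. Psmb9 (0.45) was -0.76 to 1.11 with a plate set left out, and without plate set 1 (-0.76) it met the rule downward, where 18.9% of 3151 genes met it in either direction. For double-positive minus other cells (0) it was 1, H2-D1, with at least 500 genes. In the 62 cells the median (-0.03) was -1.15 and the H2-D1 to H2-K1 difference (1.38) was 1.12. There B2m (-2.23), H2-K1 (-1.30) and Psmb10 (-2.88) met the rule downward, where 58.3% of 2364 genes met it in either direction. Between genotypes H2-D1 (1.42) and Tapbp (0.59) joined B2m and H2-K1 in meeting the rule, where 35.8% of 1368 genes did, and Nlrc5 differed by -0.01. These cells had a median of 1682 genes and only 4 plate sets entered. The exclusions of class II, lymphocyte and colonocyte-marker wells were chosen after seeing the data.

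Of the genes tested, 4.13%, 4.29%, 5.11%, 9.08% and 29.1% met the rule in either direction in the 5 comparisons, in the order of tuft gate, double-positive, other, epithelial, and double-positive minus other. Their number moved by over 1.5 times under rescaling (5.41%, 5.63%, 6.55%, 8.90% and 23.3% of the 7161 to 7886 genes that then pass 10 TPM, against 2277 to 3393 as reported), with a floor of 1 TPM (4.03%, 4.53%, 4.96%, 6.88% and 15.3% of 9562 to 10608 genes) and with none (1.95%, 2.36%, 2.81%, 4.65% and 7.11%). The share of calls that were higher moved under rescaling from 46.8% to 36.2%, 42.4% to 30.8%, 63.9% to 36.4% and 35.7% to 56.8% in the first 4. A pseudocount of 10 gave 2.59%, 2.69% and 15.3% in the tuft gate, double-positive, and double-positive minus other. With a plate set left out the first 4 were at most 11.8%, 15.6%, 11.2% and 24.1%, each without wild type plate set 6. At least 2000 genes per cell gave 18.1% in the epithelial gate, and the 62 cells gave 35.8% and 58.3%. The cause of these shifts was not tested. Depth per well is unknown, so an absent value cannot be read as absent RNA, and the 9 double-positive cells of plate set 7 weigh as much as those of any other set.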
